A study of Mus musculus with 4 samples.

Results

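Gene expression was compared between Meis1f/f and control leukaemic cells that had been given vehicle only. There was 1 library of each, so the comparison uses 2 of the 4 libraries of the study. Both populations were bone marrow leukemic cells from C57BL/6 mice, and both carried the MLL-AF9 fusion allele, written MLL-AF9-/+ in the labels. The Meis1f/f cells had the genotype Meis1f/fCreER+/- MLL-AF9-/+, which adds 2 features, Meis1 alleles with loxP sites and CreER, a recombinase that 4-hydroxytamoxifen (4-OHT) switches on. The control cells had the MLL-AF9 allele with neither floxed Meis1 nor CreER in their label. The other 2 libraries came from the same genotypes after 1000 nM 4-OHT for 24 h and are set beside the vehicle values below. All cells grew with SCF, GM-CSF, IL-6 and IL-3 at 10 ng/ml each, and serum is stated as 10% in one label and as 20% in another. The promoter that drives CreER, and whether a population came from 1 mouse, from pooled mice or from 1 clone, are nowhere stated in the labels.

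MLL-AF9 is a fusion of the histone methyltransferase MLL with the elongation factor AF9, and it turns myeloid progenitors into leukaemic cells by holding genes such as Hoxa9 and Meis1 active. Leukaemias of this kind keep part of a differentiation programme, usually that of granulocyte and monocyte precursors. The other outlets of the myeloid tree, which make mast cells, basophils, eosinophils, erythroid cells and megakaryocytes, depend on the factors GATA2 and GATA1, and granulocyte and monocyte precursors depend on factors such as C/EBPalpha, GFI1 and IRF8.

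Levels are FPKM, fragments scaled to transcript length and to the mapped total of the library, and a gene was represented by its transcript row with the highest mean. Of 22072 symbols, 10922 reached 1 FPKM in at least 1 of the 4 libraries and were compared. Differences are on the scale log2(FPKM + 1), Meis1f/f minus control, a scale on which low genes show too small a difference. No test and no p-value can be given from single libraries. A gene is called higher or lower by a size rule, when its log2 difference is 1 or more in either direction. Ratios of FPKM carry a 95% exact counting interval from the estimated reads, which covers counting error only. Estimated depth was 43.1 M reads in the Meis1f/f vehicle library and 28.5 M reads in the control vehicle library. By the sheet names lane 1 held only the Meis1f/f vehicle library and lane 2 the rest, so lane and genotype cannot be told apart under vehicle. The 2 libraries under 4-OHT shared lane 2, so the comparison between them lies within a lane, but it holds the activation of CreER as well as the genotype.

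The libraries carried the myeloid markers that the label leads to. Mpo, the myeloperoxidase gene, was at 710 FPKM in Meis1f/f and 898 FPKM in control cells, and Lyz2, the lysozyme gene of myeloid cells, was at 1127 FPKM in Meis1f/f and 1057 FPKM in control cells. The T cell marker Cd3e and the B cell marker Pax5 were listed at 0 in all 4 libraries, as was the fibroblast gene Dcn. Of the lists for other cell types, 4 of 11 T cell genes, 1 of 11 B cell genes, 1 of 6 NK cell genes, 0 of 7 fibroblast genes and 2 of 6 endothelial genes reached 1 FPKM in any library. The summed level was 7.19 FPKM in Meis1f/f and 3.55 FPKM in control cells for the T cell list, 1.87 FPKM in Meis1f/f and 6.31 FPKM in control cells for the B cell list, and 1.95 FPKM in Meis1f/f and 0.216 FPKM in control cells for the NK cell list. Their part in the results was not tested. The Y-linked genes Ddx3y, Kdm5d, Eif2s3y and Uty were expressed in both vehicle libraries, with Eif2s3y at 34.8 FPKM in each, and Xist was at 0.00956 FPKM in Meis1f/f and listed at 0 in control cells.

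Meis1, the gene that carries the floxed alleles, was close in the 2 vehicle libraries. It was at 11.8 FPKM in Meis1f/f and 11.6 FPKM in control cells under vehicle, and at 7.38 FPKM in Meis1f/f and 12.1 FPKM in control cells under 4-OHT. The vehicle ratio was 1.02, with a counting interval of 0.949 to 1.10. The labels do not say which exons are floxed, and FPKM sums the reads of all exons, so the value does not measure intact transcript.

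More genes were higher than lower in Meis1f/f cells. By the size rule 638 of 10922 genes were higher (5.84%) and 230 were lower (2.11%), 868 in either direction (7.95%), while the median difference over all genes was -0.06, with quartiles of -0.36 and 0.31. A difference of at least 2 in size was reached by 120 genes in the higher direction and 14 in the lower direction. Under 4-OHT, in 2 other libraries, 406 genes were higher (3.72%) and 176 lower (1.61%) in Meis1f/f cells, 5.33% in either direction.

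**Figure D1:**
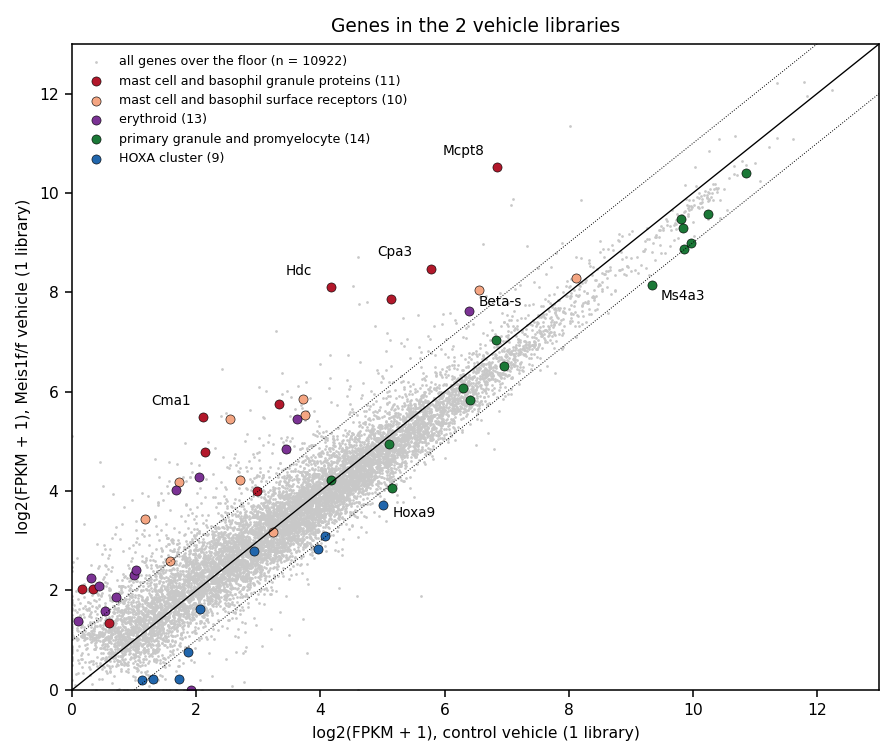
Level of each gene in the Meis1f/f vehicle library (vertical axis) against the control vehicle library (horizontal axis), both as log2(FPKM + 1), with 1 point per gene; the solid line marks equal levels and the dotted lines a log2 difference of 1. Mast cell and basophil genes such as Mcpt8 (1466 FPKM in Meis1f/f, 113 FPKM in control) lie above the upper line, and Ms4a3 (281 FPKM in Meis1f/f, 645 FPKM in control) and Hoxa9 (12.2 FPKM in Meis1f/f, 31.3 FPKM in control) lie below the lower line.

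The list of mast cell and basophil granule genes was far higher in Meis1f/f cells. Of its 14 genes, 11 reached the floor of 1 FPKM, and 10 of these were higher by the size rule and 0 lower, with a median difference of 2.66. The summed level of the 14 genes was 2473 FPKM in Meis1f/f and 242 FPKM in control cells. The same sums under 4-OHT were 1959 FPKM in Meis1f/f and 230 FPKM in control cells, and the median there was 2.51. In bulk RNA a larger share of cells of a type and more RNA per cell cannot be told apart.

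Mcpt8, a serine protease that marks basophils, was the most abundant of them. It was at 1466 FPKM in Meis1f/f and 113 FPKM in control cells under vehicle, and at 987 FPKM in Meis1f/f and 112 FPKM in control cells under 4-OHT. The vehicle ratio was 12.9, with a counting interval of 12.5 to 13.5, and the Meis1f/f libraries stood above the control libraries under both treatments. Cpa3, carboxypeptidase A of mast cell and basophil granules, was at 355 FPKM in Meis1f/f and 54.2 FPKM in control cells under vehicle, and at 652 FPKM in Meis1f/f and 62.2 FPKM in control cells under 4-OHT. Prss34, a tryptase-like protease of basophils, was at 232 FPKM in Meis1f/f and 34.1 FPKM in control cells under vehicle, and at 104 FPKM in Meis1f/f and 24.4 FPKM in control cells under 4-OHT. Cpa3 and Prss34 thus differed by genotype in the same direction in both pairs of libraries, by 2.69 and 2.73 under vehicle.

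Genes of mature mast cells were present at lower levels. Cma1, a mast cell chymase, was at 43.7 FPKM in Meis1f/f and 3.32 FPKM in control cells under vehicle, and at 47.7 FPKM in Meis1f/f and 1.80 FPKM in control cells under 4-OHT. Tpsb2, a tryptase, was at 26.8 FPKM in Meis1f/f and 3.39 FPKM in control cells, and Mcpt4, another chymase, was at 3.10 FPKM in Meis1f/f and 0.117 FPKM in control cells. Mcpt1, Mcpt9 and Tpsab1 were below 1 FPKM in every library, so the list was not expressed as a whole. Tpsg1, a transmembrane tryptase, was the member over the floor that missed the size rule, at 1.52 FPKM in Meis1f/f and 0.509 FPKM in control cells.

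The machinery for histamine was higher as well. Hdc, histidine decarboxylase, makes histamine, and it was at 273 FPKM in Meis1f/f and 16.9 FPKM in control cells under vehicle, and at 89.4 FPKM in Meis1f/f and 14.9 FPKM in control cells under 4-OHT. Its vehicle ratio was 16.2 (counting interval 15.2 to 17.2). Slc18a2, which loads monoamines into granules, was at 53.1 FPKM in Meis1f/f and 9.07 FPKM in control cells.

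Surface receptors of mast cells and basophils followed, with 8 of the 10 genes over the floor higher, 0 lower and a median of 1.64. Fcer1a, the IgE-binding subunit of the high-affinity IgE receptor, was at 56.6 FPKM in Meis1f/f and 12.1 FPKM in control cells under vehicle, and at 73.7 FPKM in Meis1f/f and 8.04 FPKM in control cells under 4-OHT. Ms4a2, the beta subunit of the same receptor, was at 17.6 FPKM in Meis1f/f and 5.51 FPKM in control cells under vehicle, and at 28.4 FPKM in Meis1f/f and 3.99 FPKM in control cells under 4-OHT. Fcer1g, the gamma subunit, which other Fc receptors of myeloid cells also use, was at 311 FPKM in Meis1f/f and 277 FPKM in control cells and missed the size rule. Of the 3 subunit genes, Fcer1a and Ms4a2 passed the rule. Il1rl1, the receptor for interleukin 33, was at 42.5 FPKM in Meis1f/f and 4.80 FPKM in control cells, a ratio of 8.84 (counting interval 8.18 to 9.57). Cd200r3, an activating receptor of mast cells and basophils, was at 17.1 FPKM in Meis1f/f and 2.29 FPKM in control cells. The other CD200 receptor genes examined, Cd200r1 and Cd200r4, were past the size rule in the same direction in both pairs of libraries, but were chosen after their values were seen. The early activation marker Cd69 was at 7.98 FPKM in Meis1f/f and 8.47 FPKM in control cells.

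Cytokine genes that mast cells and basophils secrete were among the largest differences. The type 2 cytokine list holds Il4, Il13, Il5, Il9 and Il31 beside Il6, Areg, Osm, Csf1, Csf2, Tnf, Ccl3 and Ccl4. Its counts are thus not those of type 2 cytokines alone. Of the 8 genes of this list over the floor, 6 were higher and 0 lower, with a median of 2.58 under vehicle and 1.33 under 4-OHT. Il4 and Il13 passed the floor only through Meis1f/f libraries, which raises this median. With no floor the vehicle median over all 13 genes was 0.85. Il6, interleukin 6, was at 86.3 FPKM in Meis1f/f and 4.31 FPKM in control cells under vehicle, and at 36.1 FPKM in Meis1f/f and 3.44 FPKM in control cells under 4-OHT. Il13, interleukin 13, was at 16.1 FPKM in Meis1f/f and 0.418 FPKM in control cells under vehicle, and at 2.51 FPKM in Meis1f/f and 0.419 FPKM in control cells under 4-OHT. Il4, interleukin 4, was at 14.3 FPKM in Meis1f/f and 0.571 FPKM in control cells under vehicle, and at 1.504 FPKM in Meis1f/f and 0.442 FPKM in control cells under 4-OHT. For Il4 and Il13 the Meis1f/f vehicle library was far above the other 3 libraries, and the genotype difference of Il4 under 4-OHT, 0.80, missed the size rule. The control vehicle levels of Il13 and Il4 rest on an estimated 14.3 and 9.51 reads, and their ratios of 38.6 and 25.04 have counting intervals of 23.5 to 72.7 and 12.8 to 50.0. Csf1, the macrophage growth factor, was at 46.8 FPKM in Meis1f/f and 4.57 FPKM in control cells. Il5, Il9 and Il31 were listed at 0 in both vehicle libraries.

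**Figure D2:**
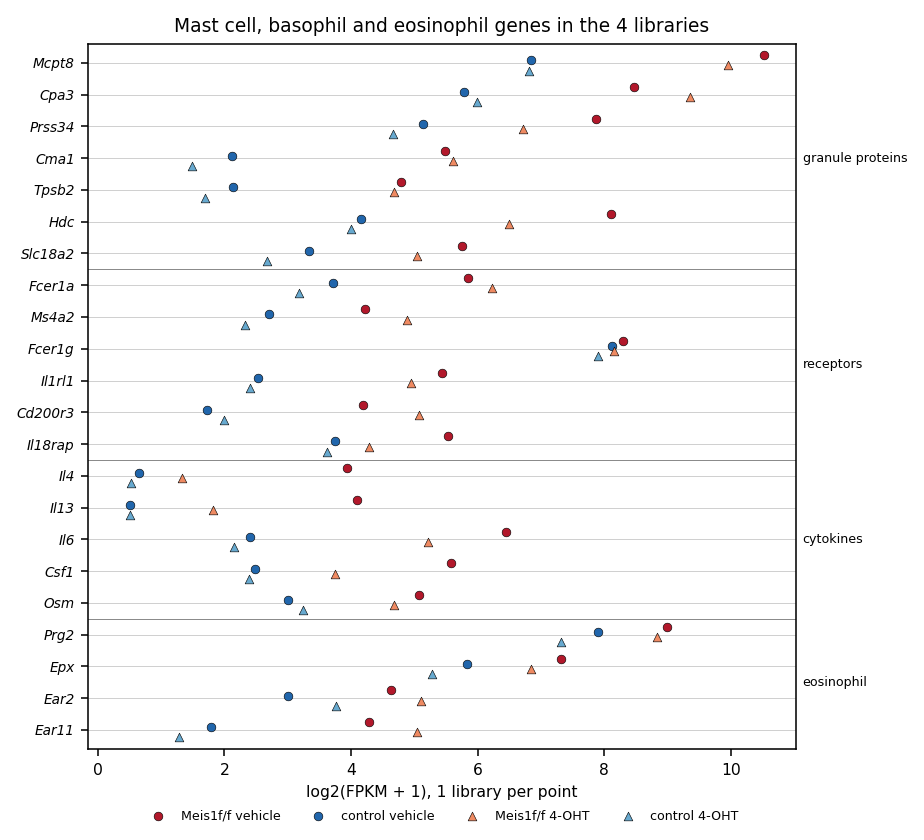
Levels of mast cell, basophil and eosinophil genes as log2(FPKM + 1) in the 4 libraries, 1 library per point, with granule protein, receptor, cytokine and eosinophil genes in blocks from top to bottom. The Meis1f/f vehicle points lie to the right of the control vehicle points, far for Hdc (273 FPKM in Meis1f/f, 16.9 FPKM in control) and little for Fcer1g (311 FPKM in Meis1f/f, 277 FPKM in control).

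Eosinophil genes were higher by a smaller margin, with 7 of 9 higher, 0 lower and a median of 1.10. Prg2, the major basic protein of eosinophil granules, was at 509 FPKM in Meis1f/f and 237 FPKM in control cells under vehicle, and at 456 FPKM in Meis1f/f and 157 FPKM in control cells under 4-OHT. Epx, eosinophil peroxidase, was at 158 FPKM in Meis1f/f and 56.2 FPKM in control cells under vehicle, and at 113 FPKM in Meis1f/f and 37.6 FPKM in control cells under 4-OHT. Both genes were well expressed in control cells too, unlike most mast cell genes. The receptor genes Ccr3 and Il5ra were near 0 under vehicle. Ccr3 was at 0.291 FPKM in Meis1f/f and 0.0463 FPKM in control cells. Il5ra was at 0.0969 FPKM in Meis1f/f and 0.126 FPKM in control cells. The list also holds the receptor gene Siglec5, whose level is not given here, so this does not cover all its receptors. The eosinophil ribonuclease genes share sequence, with 45.6% of the 45-base words of Ear2 and 61.4% of those of Ear1 found in other genes, so the split of reads between them is uncertain. Of these genes Ear11 had the largest difference, at 18.4 FPKM in Meis1f/f and 2.44 FPKM in control cells.

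Synthesis genes of leukotrienes and prostaglandins were mixed, with 4 of 9 higher, 0 lower and a median of 0.73. Alox5, the 5-lipoxygenase that starts leukotriene synthesis, was at 106 FPKM in Meis1f/f and 20.8 FPKM in control cells, while its partner Alox5ap was at 255 FPKM in Meis1f/f and 238 FPKM in control cells. Downstream, Lta4h, which leads to leukotriene B4 in neutrophils, was at 163 FPKM in Meis1f/f and 296 FPKM in control cells, a difference of -0.86 that missed the size rule. Ptgs2, the inducible cyclooxygenase, was at 7.52 FPKM in Meis1f/f and 1.23 FPKM in control cells under vehicle, and at 0.765 FPKM in Meis1f/f and 0.454 FPKM in control cells under 4-OHT.

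Transcription factor genes were split, with 11 of 30 of the lineage list higher, 2 lower and a median of 0.25, and several factors of the mast cell, erythroid and megakaryocyte lineages were among the higher ones. Gata2, which directs mast cell, basophil and early progenitor genes, was at 105 FPKM in Meis1f/f and 16.9 FPKM in control cells under vehicle, and at 54.6 FPKM in Meis1f/f and 10.3 FPKM in control cells under 4-OHT. Gata1, its relative in erythroid, megakaryocyte, eosinophil and mast cells, was at 19.8 FPKM in Meis1f/f and 2.82 FPKM in control cells under vehicle, and at 12.3 FPKM in Meis1f/f and 2.24 FPKM in control cells under 4-OHT. Both factors stood above the control libraries under either treatment, with vehicle ratios of 6.22 (counting interval 5.91 to 6.56) for Gata2 and 7.02 (5.92 to 8.38) for Gata1. Zfpm1, the GATA1 cofactor FOG, was at 18.6 FPKM in Meis1f/f and 2.74 FPKM in control cells under vehicle, and at 8.14 FPKM in Meis1f/f and 1.65 FPKM in control cells under 4-OHT. Gfi1b, a repressor of erythroid and megakaryocyte cells, was at 18.3 FPKM in Meis1f/f and 3.12 FPKM in control cells under vehicle, and at 5.48 FPKM in Meis1f/f and 2.996 FPKM in control cells under 4-OHT. Tal1, which binds DNA with GATA factors, was at 33.3 FPKM in Meis1f/f and 15.2 FPKM in control cells. The adaptor Lmo2 of the same complex went the other way under vehicle, at 24.1 FPKM in Meis1f/f and 55.1 FPKM in control cells, while under 4-OHT it was at 68.5 FPKM in Meis1f/f and 57.3 FPKM in control cells. Mitf, a mast cell factor, was at 1.59 FPKM in Meis1f/f and 2.61 FPKM in control cells and missed the size rule, and with its 3 transcript rows summed it was at 4.76 FPKM in Meis1f/f and 3.97 FPKM in control cells, so its direction depends on the row used.

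GATA factors bind the letters AGATAA and TGATAA, which read TTATCT and TTATCA on the other strand, and promoters of the genes above were searched for them. The sequences below are shown because their genes were among those higher in Meis1f/f cells; each is the 130 bases that end just before the transcription start, 5′ to 3′ on the gene's own strand, from RefSeq on build GRCm38.p6, with the searched letters in capitals. Ms4a2, the IgE receptor beta subunit, lies at chr19:11623720-11623849 on the minus strand, Cd200r3 at chr16:44943548-44943677 on the plus strand, Cpa3 at chr3:20242182-20242311 on the minus strand and Prss34 at chr17:25298264-25298393 on the plus strand. Fcer1a lies at chr1:173227230-173227359 on the minus strand and the erythroid factor gene Klf1 at chr8:84901852-84901981 on the plus strand. Mcpt8, at chr14:56085198-56085327 on the minus strand, and Hdc, at chr2:126618679-126618808 on the minus strand, are given as genes with large differences and no match in the window.
Ms4a2: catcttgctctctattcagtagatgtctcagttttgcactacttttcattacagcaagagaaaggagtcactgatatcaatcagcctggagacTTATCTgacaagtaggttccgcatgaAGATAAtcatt
Cd200r3: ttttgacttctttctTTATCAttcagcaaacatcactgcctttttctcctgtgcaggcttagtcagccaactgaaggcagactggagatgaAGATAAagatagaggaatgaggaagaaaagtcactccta
Cpa3: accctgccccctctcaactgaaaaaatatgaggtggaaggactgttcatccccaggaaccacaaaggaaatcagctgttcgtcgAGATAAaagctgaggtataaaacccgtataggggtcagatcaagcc
Prss34: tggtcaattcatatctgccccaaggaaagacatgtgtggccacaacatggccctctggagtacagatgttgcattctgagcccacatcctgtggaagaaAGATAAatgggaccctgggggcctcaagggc
Fcer1a: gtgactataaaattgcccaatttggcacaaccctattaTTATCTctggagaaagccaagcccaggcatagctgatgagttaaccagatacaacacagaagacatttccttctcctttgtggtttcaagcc
Klf1: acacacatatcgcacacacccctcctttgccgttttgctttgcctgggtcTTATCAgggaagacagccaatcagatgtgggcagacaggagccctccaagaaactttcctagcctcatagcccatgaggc
Mcpt8: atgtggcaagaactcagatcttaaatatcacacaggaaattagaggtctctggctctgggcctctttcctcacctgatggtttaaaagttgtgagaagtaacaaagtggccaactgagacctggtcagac
Hdc: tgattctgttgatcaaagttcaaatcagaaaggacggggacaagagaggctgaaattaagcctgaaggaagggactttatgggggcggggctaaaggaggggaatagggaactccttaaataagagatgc

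Listed genes were searched whether or not they reached the floor. Of the 11 granule genes with a promoter in the table, 6 (54.5%) held a match within 250 bases before the start. So did 6 of 12 receptor genes (50.0%) and 11 of 12 erythroid genes (91.7%). The matches included Mcpt1 and Alas2, below 1 FPKM in every library, Tpsg1, which missed the size rule, and Hba-a2, which was lower. Whether matches go with the genes that were higher was not tested. The share was 9.37% (816 of 8712) over all genes above the floor and 17.0% (4591 of 27025) over all promoters in the table. The other lists searched had matches in 3 of 10 eosinophil genes, 4 of 14 megakaryocyte genes (28.6%), 4 of 19 later neutrophil granule genes (21.1%), 3 of 21 monocyte genes (14.3%), 0 of 12 primary granule genes and 0 of 9 HOXA genes. The match of Cpa3 began 46 bases before the start, that of Prss34 31 bases before it and the nearest of Ms4a2 11 bases before it. These are matches of letters, which do not show binding, and the absence of a match in Mcpt8 and Hdc says only that the letters are not in this window.

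Erythroid genes were higher in Meis1f/f cells, most of them at low levels apart from the globin genes. Of 13 genes over the floor, 12 were higher and 1 lower, with a median of 1.38 under vehicle and 1.88 under 4-OHT, and the summed level of the 19 listed genes was 321 FPKM in Meis1f/f and 117 FPKM in control cells. At a pseudocount of 5 the median was 0.63, with 5 genes higher and 0 lower. Klf1, the erythroid Krüppel-like factor, was at 3.99 FPKM in Meis1f/f and 1.00 FPKM in control cells under vehicle, and at 5.47 FPKM in Meis1f/f and 0.557 FPKM in control cells under 4-OHT. Epor, the erythropoietin receptor, was at 3.78 FPKM in Meis1f/f and 0.239 FPKM in control cells. The globin gene Beta-s was at 195 FPKM in Meis1f/f and 83.2 FPKM in control cells under vehicle, and at 226 FPKM in Meis1f/f and 25.9 FPKM in control cells under 4-OHT. Globin genes have near-identical copies, with 68.5% of the words of Hba-a1 shared, and the 1 lower gene was Hba-a2, the copy of Hba-a1, at 0.0018 FPKM in Meis1f/f and 2.78 FPKM in control cells. Hba-a1 was at 15.2 FPKM in Meis1f/f and 2.20 FPKM in control cells, so the direction of Hba-a2 is uncertain. Alas2 and Slc4a1, genes of haemoglobin-filled erythroblasts, were below 1 FPKM in every library.

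Among 12 megakaryocyte and platelet genes 6 were higher and 0 lower under vehicle, with a median of 0.99, and under 4-OHT 3 were higher and 2 lower. The vehicle median was 0.31 with no floor and 0.51 at a pseudocount of 5. The summed level of the 20 listed genes was 835 FPKM in Meis1f/f and 534 FPKM in control cells under vehicle, and 218 FPKM in Meis1f/f and 609 FPKM in control cells under 4-OHT, most of it Thbs1, a matrix glycoprotein of platelets, except in the Meis1f/f 4-OHT library, where that gene was at 20.8 FPKM. Itga2b, the integrin subunit of the fibrinogen receptor, was at 24.9 FPKM in Meis1f/f and 4.37 FPKM in control cells, and its partner Itgb3 was at 17.3 FPKM in Meis1f/f and 4.25 FPKM in control cells. The platelet chemokine genes did not follow, with Pf4 at 12.3 FPKM in Meis1f/f and 21.5 FPKM in control cells and Ppbp at 3.14 FPKM in Meis1f/f and 5.17 FPKM in control cells. Itga2b and Itgb3 are also expressed by mast cells, and Gata2, Gata1, Tal1 and Gfi1b are shared between mast, erythroid and megakaryocyte cells, so these lists do not mark separate cells.

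**Figure D3:**
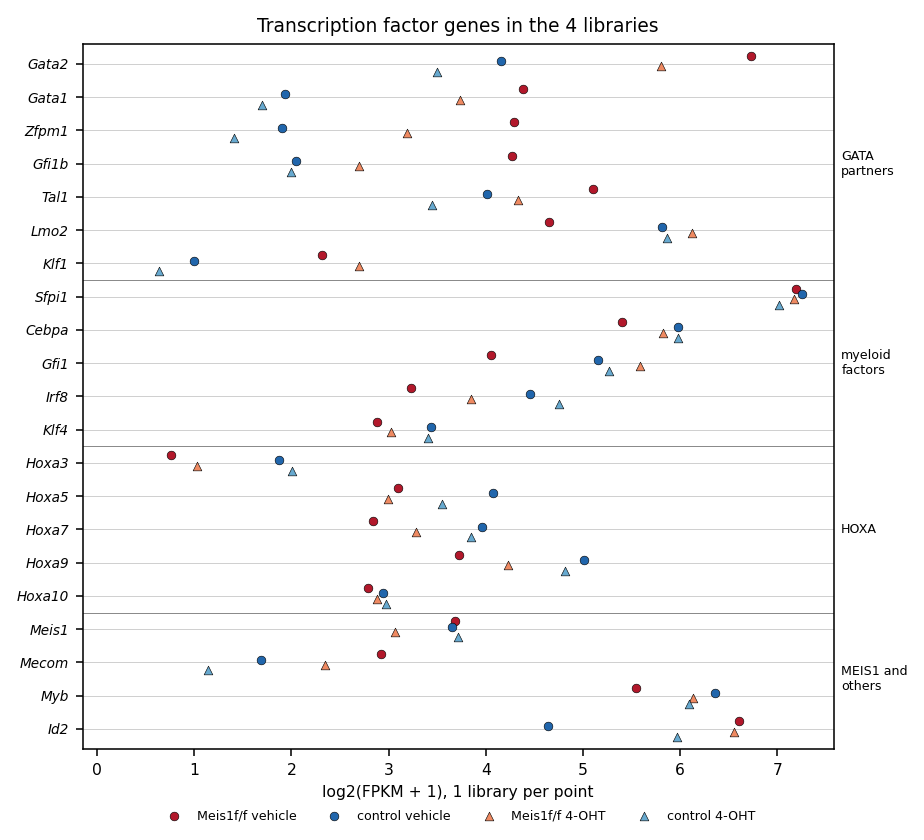
Levels of transcription factor genes as log2(FPKM + 1) in the 4 libraries, 1 library per point, with GATA partners, myeloid factors, HOXA genes and MEIS1 with other factors in blocks from top to bottom. Gata2 (105 FPKM in Meis1f/f vehicle, 16.9 FPKM in control vehicle) lies to the right in both Meis1f/f libraries, Hoxa9 (12.2 FPKM in Meis1f/f vehicle, 31.3 FPKM in control vehicle) lies to the left in both, and Meis1 (11.8 FPKM in Meis1f/f vehicle, 11.6 FPKM in control vehicle) overlaps under vehicle.

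Granulocyte precursor genes went the other way, by less. Of 14 primary granule genes 12 were below 0, 2 of them past the size rule (Ms4a3 and Gfi1), and the median was -0.49 under vehicle and -0.06 under 4-OHT. Gfi1, a repressor needed for neutrophil development, was at 15.6 FPKM in Meis1f/f and 34.6 FPKM in control cells under vehicle, and at 47.0 FPKM in Meis1f/f and 37.5 FPKM in control cells under 4-OHT. Ms4a3, a marker of granulocyte and monocyte progenitors, was at 281 FPKM in Meis1f/f and 645 FPKM in control cells under vehicle, and at 685 FPKM in Meis1f/f and 738 FPKM in control cells under 4-OHT. For both genes the Meis1f/f vehicle library was below the other 3. The granule protease genes were at 1351 FPKM in Meis1f/f and 1843 FPKM in control cells for Elane, at 505 FPKM in Meis1f/f and 1005 FPKM in control cells for Prtn3, and at 758 FPKM in Meis1f/f and 1208 FPKM in control cells for Ctsg, and none of these passed the size rule. Cebpa, which starts granulocyte development, was at 41.3 FPKM in Meis1f/f and 62.0 FPKM in control cells, and Sfpi1, the ETS factor that all myeloid cells need, was at 145 FPKM in Meis1f/f and 151 FPKM in control cells.

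Genes of later neutrophil granules lay mostly above 0, but few passed the size rule. Of 22, 6 were higher and 1 lower, with a median of 0.71. The vehicle difference was above 0 for 16 genes and below 0 for 6. Their summed level under vehicle was 14176 FPKM in Meis1f/f and 8368 FPKM in control cells. Under 4-OHT it was 13480 FPKM in Meis1f/f and 7665 FPKM in control cells. Chi3l3, given below, is part of these sums. The lactoferrin gene Ltf was at 87.9 FPKM in Meis1f/f and 70.3 FPKM in control cells, the cathelicidin gene Camp at 51.0 FPKM in Meis1f/f and 76.2 FPKM in control cells and Ngp at 855 FPKM in Meis1f/f and 978 FPKM in control cells. Ltf, Camp and Ngp thus all missed the size rule, and they do not stand for the whole list. Mmp9, gelatinase B, was at 16.1 FPKM in Meis1f/f and 1.88 FPKM in control cells, and Cxcr2, the neutrophil chemokine receptor, was at 32.4 FPKM in Meis1f/f and 9.26 FPKM in control cells under vehicle and at 22.1 FPKM in Meis1f/f and 8.54 FPKM in control cells under 4-OHT. The lower gene was Hp, haptoglobin, at 81.7 FPKM in Meis1f/f and 218 FPKM in control cells. The largest difference of the list belonged to Chi3l3, a chitinase-like protein of neutrophils and alternatively activated macrophages, at 2620 FPKM in Meis1f/f and 259 FPKM in control cells under vehicle, and at 3850 FPKM in Meis1f/f and 305 FPKM in control cells under 4-OHT. A part of its sequence, 33.1% of its words, is shared, mostly with Chi3l4, which was at 44.4 FPKM in Meis1f/f and 4.27 FPKM in control cells.

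Monocyte genes were split, with 3 of 26 higher, 3 lower and a median of -0.08. Irf8, which directs monocyte and dendritic cell development, was at 8.40 FPKM in Meis1f/f and 20.9 FPKM in control cells under vehicle, and at 13.4 FPKM in Meis1f/f and 26.0 FPKM in control cells under 4-OHT. Ms4a6c, a membrane protein of monocytes, was at 1.14 FPKM in Meis1f/f and 10.3 FPKM in control cells under vehicle, and at 2.76 FPKM in Meis1f/f and 13.3 FPKM in control cells under 4-OHT. F13a1, the A subunit of coagulation factor XIII, was at 115 FPKM in Meis1f/f and 237 FPKM in control cells under vehicle, and at 37.5 FPKM in Meis1f/f and 284 FPKM in control cells under 4-OHT. These 3 lower genes had the lower value in the Meis1f/f library of each pair. The higher genes were Fn1, fibronectin, at 12.7 FPKM in Meis1f/f and 1.59 FPKM in control cells, the mannose receptor gene Mrc1 at 10.4 FPKM in Meis1f/f and 3.26 FPKM in control cells, and Mertk, a receptor for apoptotic cells, at 1.88 FPKM in Meis1f/f and 0.313 FPKM in control cells. Ly6c2, an inflammatory monocyte marker, was at 810 FPKM in Meis1f/f and 1496 FPKM in control cells, a difference of -0.88, and shares 38.4% of its words with other genes.

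Some genes of antigen presentation and dendritic cells were higher. Of 10 MHC class II genes 4 were higher and 0 lower under vehicle, with a median of 0.82, while under 4-OHT 0 were higher and 0 lower, 5 lay above 0 and 5 below, and the median was 0.30. H2-Aa, a class II alpha chain, was at 138 FPKM in Meis1f/f and 52.1 FPKM in control cells under vehicle, and at 148 FPKM in Meis1f/f and 91.1 FPKM in control cells under 4-OHT. Of 11 dendritic genes over the floor 7 were higher and 0 lower, with a median of 1.15 under vehicle and 1.86 under 4-OHT. With no floor 7 of 18 were higher under vehicle and the median was 0.79, while 5.84% of all genes were higher. Itgax, which encodes CD11c, was at 17.4 FPKM in Meis1f/f and 2.57 FPKM in control cells, and Ccl17, a chemokine of dendritic cells, was at 31.0 FPKM in Meis1f/f and 5.88 FPKM in control cells. The defining dendritic factor Zbtb46 was at 0.461 FPKM in Meis1f/f and 0.119 FPKM in control cells, and Xcr1, Clec9a, Cd209a and Siglech, markers of dendritic subsets, were below 1 FPKM in every library.

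The HOXA cluster on chromosome 6, which MLL fusions keep active, was lower in Meis1f/f cells. All 9 genes over the floor were below 0, 5 of them past the size rule and 0 higher, with a median of -1.08 under vehicle and -0.56 under 4-OHT. The levels were low, so the size depended on the pseudocount, with a median of -0.43 and 1 gene lower at a pseudocount of 5 and a median of -1.34 and 7 genes lower at 0.1. Hoxa9, the HOX partner of MEIS1 in these leukaemias, was at 12.2 FPKM in Meis1f/f and 31.3 FPKM in control cells under vehicle, and at 17.8 FPKM in Meis1f/f and 27.1 FPKM in control cells under 4-OHT. Hoxa7 was at 6.13 FPKM in Meis1f/f and 14.5 FPKM in control cells under vehicle, and at 8.74 FPKM in Meis1f/f and 13.4 FPKM in control cells under 4-OHT. The Meis1f/f library was the lower of each pair for both genes, and under 4-OHT neither reached the size rule. Hoxa10 stood apart from its neighbours, at 5.91 FPKM in Meis1f/f and 6.66 FPKM in control cells, a ratio of 0.888 (counting interval 0.78 to 1.012), but with its 2 transcript rows summed it was at 8.27 FPKM in Meis1f/f and 12.1 FPKM in control cells.

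The list of known MLL-AF9 targets, which again counts Hoxa9, Hoxa10 and Meis1, was split. Of its 15 genes over the floor 3 were higher and 2 lower, Hoxa9 among the lower ones. The median was -0.29, with 6 genes above 0 and 9 below. At a pseudocount of 0.1, or with the length trend removed, 4 genes were lower. Mecom, which encodes the factor EVI1, was at 6.598 FPKM in Meis1f/f and 2.23 FPKM in control cells, and Id2, an inhibitor of helix-loop-helix factors, was at 96.3 FPKM in Meis1f/f and 24.0 FPKM in control cells. Myb was at 45.9 FPKM in Meis1f/f and 81.2 FPKM in control cells, a difference of -0.81 that missed the rule. Of the TALE homeobox genes, the family of Meis1, 0 of 7 passed the size rule. Mll1, whose first exons are shared by the normal and the fused allele, was at 5.03 FPKM in Meis1f/f and 2.20 FPKM in control cells under vehicle, and at 2.28 FPKM in Meis1f/f and 1.85 FPKM in control cells under 4-OHT. Its transcript is 16439 bases long, and the long transcripts of this pair of libraries had a shift of their own, given below.

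Among stem and progenitor genes 6 of 20 were higher and 1 was lower, with a median of 0.30. Apart from Gata2, Tal1 and Mecom the higher genes were Mycn, Ikzf2 and Angpt1, and Mycn was at 5.05 FPKM in Meis1f/f and 0.934 FPKM in control cells. Kit, the SCF receptor of progenitors and mast cells, was at 7.21 FPKM in Meis1f/f and 5.70 FPKM in control cells. Cd34 was at 9.40 FPKM in Meis1f/f and 4.91 FPKM in control cells under vehicle, and at 11.7 FPKM in Meis1f/f and 2.01 FPKM in control cells under 4-OHT.

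Receptors for the cytokines in the medium differed at the shared beta chains. Csf2rb, the beta chain for IL-3, GM-CSF and IL-5, was at 242 FPKM in Meis1f/f and 101 FPKM in control cells under vehicle, and at 205 FPKM in Meis1f/f and 97.8 FPKM in control cells under 4-OHT. Csf2rb2, the mouse beta chain for IL-3 alone, was at 159 FPKM in Meis1f/f and 28.4 FPKM in control cells under vehicle, and at 126 FPKM in Meis1f/f and 30.2 FPKM in control cells under 4-OHT. These were the 2 genes past the size rule among 15 of this list, none was lower, and 20.6% of the words of Csf2rb and 21.7% of those of Csf2rb2 are found in other genes. The alpha chains were close, with Il3ra at 9.27 FPKM in Meis1f/f and 7.998 FPKM in control cells and Csf2ra at 30.8 FPKM in Meis1f/f and 24.5 FPKM in control cells.

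Other groups of surface and signalling genes had part of their members higher. Of 20 other cytokine receptor genes 7 were higher and 0 lower, with a median of 0.88, and Il7r, the interleukin 7 receptor, was at 12.2 FPKM in Meis1f/f and 2.57 FPKM in control cells. Of 18 chemokine and chemokine receptor genes 7 were higher and 0 lower, with a median of 0.68, and Ccl24, an eosinophil attractant, was at 44.3 FPKM in Meis1f/f and 10.4 FPKM in control cells under vehicle and at 68.1 FPKM in Meis1f/f and 2.11 FPKM in control cells under 4-OHT. Fc receptors and lectins had 5 of 20 higher and 0 lower, led by genes such as Clec7a, the beta-glucan receptor dectin 1, at 57.9 FPKM in Meis1f/f and 13.2 FPKM in control cells. Integrin and adhesion genes had 5 of 20 higher and 0 lower. In these 4 lists no gene was lower by the size rule under vehicle. Over all genes only 2.11% were lower, so this absence is not read as a trait of the lists.

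Genes of cell death and arrest were partly higher. Of 19 genes of the p53 target list 5 were higher and 0 lower, with medians of 0.67 under vehicle and 0.32 under 4-OHT. The list also holds the cell cycle inhibitor genes Cdkn2a and Cdkn2b, so it is not made up of p53 targets alone. Perp, a membrane protein that p53 induces, was at 43.2 FPKM in Meis1f/f and 7.54 FPKM in control cells under vehicle. Under 4-OHT it was at 30.9 FPKM in Meis1f/f and 6.21 FPKM in control cells. Cdkn2b, the cell cycle inhibitor p15 and 1 of the 5 genes counted as higher, was at 13.1 FPKM in Meis1f/f and 0.954 FPKM in control cells. Of 15 BCL2 family genes 4 were higher and 0 lower, and Bcl2, which blocks cell death, was at 6.06 FPKM in Meis1f/f and 1.98 FPKM in control cells. Under vehicle 1 of 14 interferon-stimulated genes was higher and 1 lower. Glycolysis genes had 1 of 22 higher and 0 lower (median -0.27). Cholesterol synthesis genes had 2 of 23 higher and 1 lower (median -0.03). Over all genes 5.84% were higher and 2.11% lower, so these small counts are not read as traits of the lists.

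The 15 highest genes by the naming rule were led by a family of protease inhibitors. Stfa2, a stefin A gene that inhibits cysteine proteases, was at 420 FPKM in Meis1f/f and 23.4 FPKM in control cells under vehicle, and at 224 FPKM in Meis1f/f and 24.9 FPKM in control cells under 4-OHT, the highest difference of all (4.11). All 5 stefin A genes examined were higher in both pairs of libraries. They all lie on chromosome 16. Some share sequence, with 20.4% of the words of Stfa2, 28.3% of those of Stfa2l1 and 32.3% of those of Stfa1 found in other genes, so the split of reads between those is uncertain, while Stfa3, at 147 FPKM in Meis1f/f and 8.71 FPKM in control cells, shared none. Akr1c18, a hydroxysteroid dehydrogenase that inactivates progesterone, was at 216 FPKM in Meis1f/f and 23.5 FPKM in control cells, and the 4 genes of its family examined were higher in both pairs too. The stefin A and Akr1c families were chosen after their values were seen, which in part fixed these counts. Over all genes 5.84% were higher under vehicle and 3.72% under 4-OHT. Il4i1, a secreted amino acid oxidase, was at 9.14 FPKM in Meis1f/f and 0.140 FPKM in control cells under vehicle, and at 10.6 FPKM in Meis1f/f and 0.530 FPKM in control cells under 4-OHT. Pga5, a pepsinogen gene, was at 24.0 FPKM in Meis1f/f and 1.51 FPKM in control cells. Of these 15 genes, 14 were also higher by the size rule under 4-OHT, and Il4 was the exception.

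The 15 lowest genes had no common lineage. Csn2, the milk protein beta casein, had the largest difference (-3.72), at 2.72 FPKM in Meis1f/f and 48.0 FPKM in control cells under vehicle, and at 3.74 FPKM in Meis1f/f and 19.0 FPKM in control cells under 4-OHT. Hebp1, a haem-binding protein, was at 2.68 FPKM in Meis1f/f and 23.2 FPKM in control cells under vehicle, and at 3.51 FPKM in Meis1f/f and 29.4 FPKM in control cells under 4-OHT. Both genes were low in both Meis1f/f libraries and higher in both control libraries. Cnn3, an actin-binding calponin, was at 1.68 FPKM in Meis1f/f and 12.1 FPKM in control cells. Slco4a1, an organic anion transporter, was at 27.9 FPKM in Meis1f/f and 110 FPKM in control cells under vehicle, and at 29.99 FPKM in Meis1f/f and 24.7 FPKM in control cells under 4-OHT, so the control vehicle library alone was high. Of the 15 genes 11 were also lower by the size rule under 4-OHT; Slco4a1, Acot1, Tmem173 and Nlrc4 were not.

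The vehicle and 4-OHT comparisons share no library. Of the 638 genes higher under vehicle 268 were also higher under 4-OHT, which is 42.0% of the vehicle list and 66.0% of the 406 of the 4-OHT list, where 3.72% of all genes were higher. Of the 230 lower genes 47 were shared, 20.4% of the vehicle list and 26.7% of the 4-OHT list, where 1.61% of all genes were lower. The 638 genes had a median difference of 1.39 under vehicle and 0.80 under 4-OHT, and the 230 genes had -1.15 under vehicle and -0.30 under 4-OHT. Since the genes were picked under vehicle, a smaller size under 4-OHT is built into the choice. Of the 638, 85 had the opposite sign under 4-OHT, and of the 230, 60 did. The cells under 4-OHT also had CreER activated in the Meis1f/f population, so this pair is not a replicate of the vehicle pair.

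**Figure D4:**
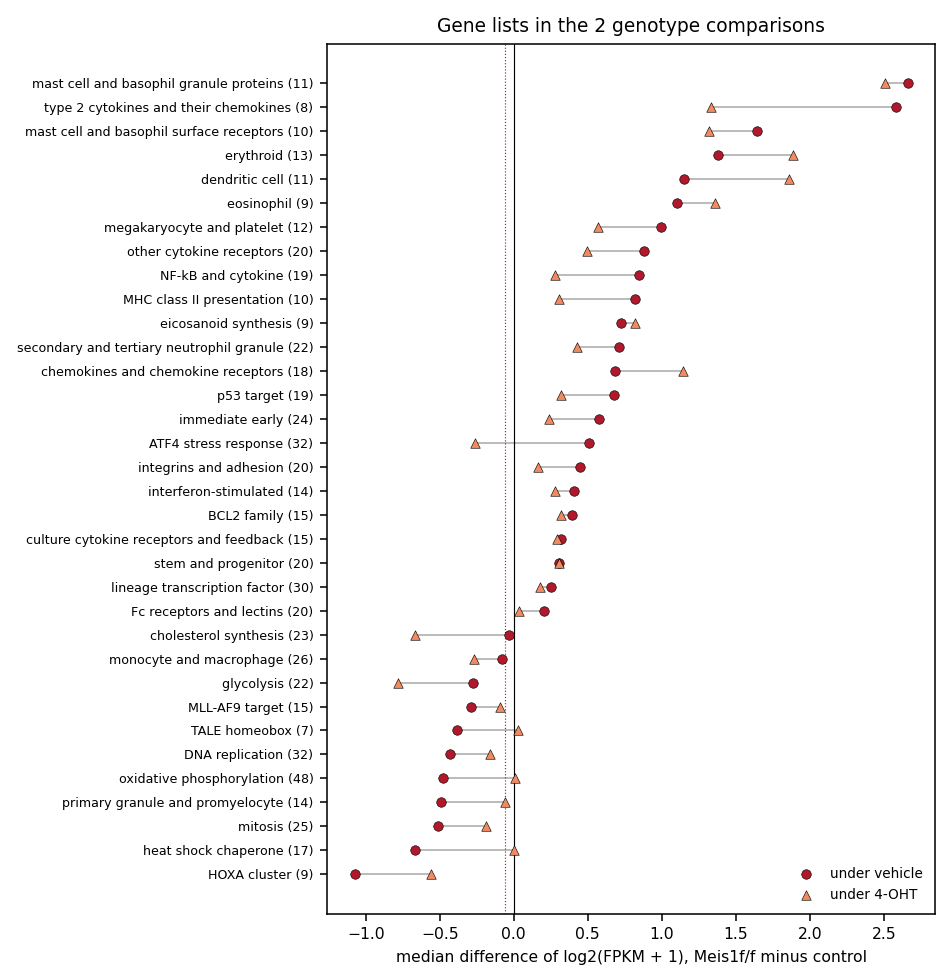
Median difference of log2(FPKM + 1), Meis1f/f minus control, of each gene list under vehicle (circles) and under 4-OHT (triangles), with the number of genes over the floor in brackets; the solid line marks 0 and the dotted line the median of all genes under vehicle (-0.06). Lists are ordered by the vehicle median, with mast cell and basophil granule genes (2.66 under vehicle, 2.51 under 4-OHT) and the HOXA cluster (-1.08 under vehicle, -0.56 under 4-OHT) at the ends. Under 4-OHT glycolysis (-0.78) and cholesterol synthesis genes (-0.67) had lower medians than the HOXA cluster. Oxidative phosphorylation genes had medians of -0.48 under vehicle and 0.01 under 4-OHT.

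Several groups had medians away from 0 under vehicle and nearer 0 under 4-OHT, a difference between the pairs that was not tested. Not all groups did so. The median of glycolysis genes was -0.27 under vehicle and -0.78 under 4-OHT, and that of cholesterol synthesis genes was -0.03 under vehicle and -0.67 under 4-OHT. Oxidative phosphorylation genes had a median of -0.48 under vehicle and 0.01 under 4-OHT; all 48 were below 0 under vehicle and 0 passed the size rule. Cyc1, a subunit of respiratory complex III, was at 81.7 FPKM in Meis1f/f and 146 FPKM in control cells under vehicle, and at 144 FPKM in Meis1f/f and 135 FPKM in control cells under 4-OHT. Heat shock chaperone genes had a median of -0.66 under vehicle and 0.00 under 4-OHT, with 1 of 17 lower. Ahsa1, a cochaperone of HSP90, was at 59.5 FPKM in Meis1f/f and 124 FPKM in control cells under vehicle, and at 115 FPKM in Meis1f/f and 119 FPKM in control cells under 4-OHT. Of 32 DNA replication genes 5 were lower and 0 higher, with a median of -0.43 under vehicle and -0.16 under 4-OHT. The number lower was 0 at a pseudocount of 5, 2 under either rescaling and 3 with the length trend removed. Cdc45, a subunit of the replicative helicase, was at 13.2 FPKM in Meis1f/f and 31.4 FPKM in control cells under vehicle, and at 17.1 FPKM in Meis1f/f and 26.1 FPKM in control cells under 4-OHT. Mitosis genes had a median of -0.51 under vehicle and -0.19 under 4-OHT, with 1 of 25 lower (Bub1, a spindle checkpoint kinase). For Cyc1 and Ahsa1 the Meis1f/f vehicle library was low and the other 3 libraries lay close together.

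Targets of the stress factor ATF4 went the other way, with 9 of 32 higher and 0 lower under vehicle and a median of 0.51 under vehicle and -0.26 under 4-OHT. Cth, which makes cysteine, was at 22.9 FPKM in Meis1f/f and 1.94 FPKM in control cells under vehicle, and at 6.23 FPKM in Meis1f/f and 5.32 FPKM in control cells under 4-OHT. Slc7a11, the cystine importer, was at 49.6 FPKM in Meis1f/f and 11.03 FPKM in control cells under vehicle, and at 6.97 FPKM in Meis1f/f and 4.41 FPKM in control cells under 4-OHT. Atf5, a factor that ATF4 induces, was at 68.6 FPKM in Meis1f/f and 21.2 FPKM in control cells under vehicle, and at 27.9 FPKM in Meis1f/f and 24.5 FPKM in control cells under 4-OHT. The Meis1f/f vehicle library stood above the other 3 for each of these genes. Atf4 itself was at 243 FPKM in Meis1f/f and 283 FPKM in control cells. Immediate early genes had 8 of 24 higher and 0 lower, with Egr1, a growth factor response gene, at 6.15 FPKM in Meis1f/f and 0.529 FPKM in control cells. NF-kB and cytokine genes had 6 of 19 higher and 0 lower, with medians of 0.85 under vehicle and 0.28 under 4-OHT.

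The Meis1f/f vehicle library also differed by transcript length. Over the 10922 genes Spearman's rho between length and the difference was 0.25 under vehicle and 0.03 under 4-OHT, as a description across genes. In 5 equal parts of the genes by length, the part with the shortest transcripts, 53 to 1454 bases, had a median difference of -0.23, and the part with the longest, 4394 to 22489 bases, had a median of 0.18. The share of lower genes was 3.71% in the shortest part and 0.595% in the longest. Oxidative phosphorylation transcripts were short, with a median length of 765 bases, and their median was -0.34 once the length trend was removed. Granule genes of mast cells were short too, at a median of 1216 bases, and they differed in the higher direction.

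**Figure D5:**
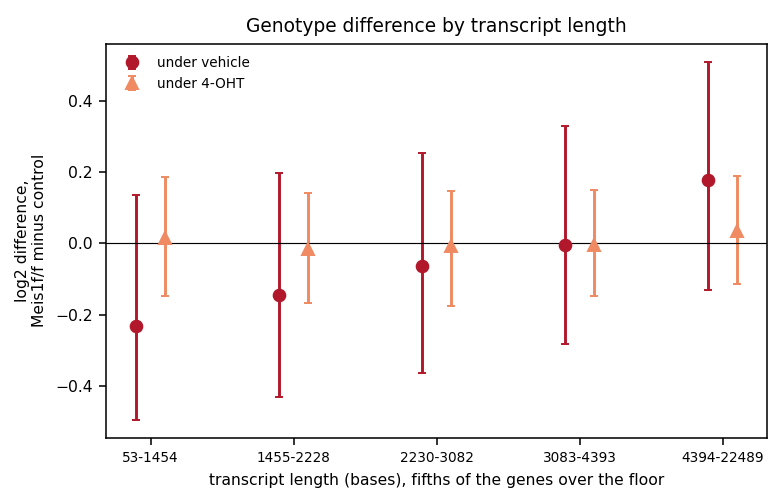
Median difference of log2(FPKM + 1), Meis1f/f minus control, in 5 equal parts of the genes by transcript length, under vehicle (circles) and under 4-OHT (triangles), with bars from the lower to the upper quartile. The vehicle median runs from -0.23 in the shortest transcripts to 0.18 in the longest, while the 4-OHT medians stay near 0.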

How the data were processed

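RNA was extracted on columns, made into libraries with the standard Illumina protocol and sequenced, 1 library for each of the 4 groups, per the labels' protocols. Bowtie and build mm8 are named in the submitters' processing notes; the program that made the values is not named there. The deposited files give FPKM per transcript and a status, per the file headers. They also give coverage, which was a fixed multiple of FPKM in each file and was used as deposited, per the file headers, only to estimate depth and reads. FPKM removes depth and transcript length but not a trend with length, and PCR copies cannot be told apart from separate molecules.

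The 28107 rows of each library were matched by transcript, 394 rows without the status OK in some library were left out, and 2323 of the 10922 genes compared had more than 1 row. Estimated reads came from the coverage of 1 read (44.9 bases in the Meis1f/f vehicle library and 45.3 bases in the control vehicle library). Intervals of ratios are exact binomial ones and cover counting error only. Since whole reads are estimates here, no count test was run. Words of 45 bases were counted in GENCODE transcripts of the reference for 722 of the 739 genes looked up. Promoters came from RefSeq. The coordinates in the deposited files were not used, as their build was not settled.

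Genes are named by a rule: the 15 highest and 15 lowest at 5 FPKM or more in a vehicle library, up to 6 per list with the largest differences, the first 3 of each list, Meis1 and Mll1, leaving out small RNAs and unnamed gene models. The gene families and these genes were chosen after their values were seen: Alas2, Alox5ap, Arg1, Atf4, Casp1, Cd200r1, Cd200r4, Cd209a, Cd36, Cd69, Clec9a, Ear1, Ecm1, Fcer1g, Hba-a2, Hgf, Ikzf2, Il31, Il3ra, Il5, Il5ra, Il9, Lif, Lyz2, Mcpt1, Mcpt4, Mcpt9, Mertk, Mitf, Slc18a2, Slc4a1, Siglech, Stfa1, Tpsab1, Tpsg1 and Xcr1. Members and lists, 41 in all, were chosen with earlier results of these data known. The alternatives were pseudocounts of 0.1 and 5, no floor or a floor of 5 FPKM, rescaling by median ratio or upper quartile, summed rows, a removed length trend, rows of any status and a size rule of 2. The code was tested on simulated data and ran in Python 3.11.15 with pandas 2.3.3, numpy 2.4.6, scipy 1.17.1, statsmodels 0.14.6 and matplotlib 3.10.9. Some genes are not reported here.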

Additional observations from a re-analysis of the deposited data

Results flagged for a closer look

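For 4 genes the genotype difference had opposite directions under vehicle and under 4-OHT, each past the size rule; the difference between the 2 comparisons was not tested, since each group has 1 library. Tgm2, a transglutaminase, was at 363 FPKM in Meis1f/f and 56.1 FPKM in control cells under vehicle (a log2 difference of 2.67), and at 8.98 FPKM in Meis1f/f and 38.2 FPKM in control cells under 4-OHT (-1.97). Trib3, a pseudokinase that stress induces, was at 32.5 FPKM in Meis1f/f and 10.6 FPKM in control cells under vehicle (1.52), and at 5.68 FPKM in Meis1f/f and 15.8 FPKM in control cells under 4-OHT (-1.33). For both genes the Meis1f/f vehicle library was the highest of the 4 and the Meis1f/f 4-OHT library the lowest. Neat1, a nuclear long noncoding RNA, was at 29.0 FPKM in Meis1f/f and 13.04 FPKM in control cells under vehicle (1.10), and at 13.3 FPKM in Meis1f/f and 29.4 FPKM in control cells under 4-OHT (-1.09). Samd5 was at 12.6 FPKM in Meis1f/f and 4.19 FPKM in control cells under vehicle (1.39), and at 0.143 FPKM in Meis1f/f and 3.83 FPKM in control cells under 4-OHT (-2.08). In all, 11 genes met this condition. Of the others, 6 were small RNAs or unnamed gene models. The remaining 1 missed either the minimum of 5 FPKM or the size rule with rows summed. These are not described.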

How the results depend on the processing

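With 1 library per group no replicate could be left out and no difference has a replicate check. No paired analysis was possible because each group had 1 library and the labels carry no replicate numbers. The counts depended on the pseudocount, with 1052 genes higher and 398 lower at 0.1, and 237 higher and 55 lower at 5; a size rule of 2 left 120 higher and 14 lower. The other alternatives gave 435 to 720 higher genes and 170 to 235 lower genes, and rescaling moved the median of all genes by 0.06 (median ratio) or 0.07 (upper quartile). The median of the TALE homeobox list was 0.030 with no floor, against -0.38 as reported, and that of the interferon-stimulated list was -0.41 with a floor of 5 FPKM, against 0.41 as reported; the cause was not tested. The 140 named genes past the size rule kept their direction in every setting that gave them a value, but 100 of them stayed past the rule at a pseudocount of 5, 133 with the length trend removed and 135 under either rescaling. At a pseudocount of 5 list medians shrank, to 1.72 for the list of type 2 and other cytokines (0.85 with no floor) and 0.71 for dendritic cell genes. They were 0.56 for other cytokine receptor, 0.48 for NF-kB, 0.39 for eicosanoid, 0.37 for immediate early and 0.33 for ATF4 genes. At this pseudocount 3 dendritic cell, 4 other cytokine receptor, 3 NF-kB and 1 immediate early genes were higher. Also at a pseudocount of 5, 1 stem and progenitor gene, 1 BCL2 family gene and 2 genes of the p53 target list were higher. The MLL-AF9 target median lay between -0.48 (length trend removed) and -0.15 (floor of 5 FPKM). Lane cannot be told apart from genotype under vehicle.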

Other observations

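Growth factor genes examined after their values were seen were higher in Meis1f/f cells in both pairs of libraries (4 of 4 under vehicle and 4 of 4 under 4-OHT). Hgf, hepatocyte growth factor, was at 61.3 FPKM in Meis1f/f and 9.36 FPKM in control cells under vehicle, and at 41.8 FPKM in Meis1f/f and 7.09 FPKM in control cells under 4-OHT. Lif, a cytokine of the IL-6 family, was at 7.74 FPKM in Meis1f/f and 0.606 FPKM in control cells, and Ecm1, an extracellular matrix protein, was at 66.9 FPKM in Meis1f/f and 7.10 FPKM in control cells. Arg1, an arginase of alternatively activated macrophages, was at 63.7 FPKM in Meis1f/f and 7.74 FPKM in control cells under vehicle, and at 44.1 FPKM in Meis1f/f and 10.8 FPKM in control cells under 4-OHT. Cd36, a scavenger receptor, was at 6.54 FPKM in Meis1f/f and 0.422 FPKM in control cells. In each of these genes the Meis1f/f library was the higher of its pair.

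Genes of DNA sensing and inflammasomes went the other way, with 3 of 6 lower and 0 higher under vehicle and 2 of 6 lower under 4-OHT. Casp1, the inflammasome protease, was at 5.93 FPKM in Meis1f/f and 18.5 FPKM in control cells under vehicle, and at 7.80 FPKM in Meis1f/f and 22.04 FPKM in control cells under 4-OHT. Tmem173, the adaptor STING, was at 9.60 FPKM in Meis1f/f and 32.4 FPKM in control cells under vehicle, and at 19.4 FPKM in Meis1f/f and 24.2 FPKM in control cells under 4-OHT. Of 4 interferon-inducible p200 genes 2 were lower, and Ifi203 was at 0.701 FPKM in Meis1f/f and 5.25 FPKM in control cells under vehicle. These families too were chosen after their values were seen.

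Epithelial marker genes were expressed in part. Cdh1, E-cadherin, was at 52.0 FPKM in Meis1f/f and 11.9 FPKM in control cells, and Epcam, another epithelial adhesion gene, was at 11.7 FPKM in Meis1f/f and 0.776 FPKM in control cells. The summed level of the 5 listed genes was 63.9 FPKM in Meis1f/f and 12.8 FPKM in control cells, and the keratin genes of the list were below 1 FPKM in every library. Over the 19 autosomes the median difference lay between -0.11 and 0.01 under vehicle and between -0.02 and 0.03 under 4-OHT, and the 333 genes of the X chromosome had a median of -0.16 under vehicle.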
